A study of Mus musculus with 54 samples.

Results

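A set of 9 genes of myelin and of the cells that make it was followed across 6 inbred mouse strains and 3 brain regions: Mog, Mag, Opalin, Mal, Cldn11, Cnp, Mobp, Mbp and Ugt8a. They were taken by symbol from the platform annotation, with every probe set that it gives to one of them and to no other gene. This found 25 of the 45101 probe sets on the array and 9 of the 18193 genes that have a probe set of their own. Mbp had 8 probe sets, Mobp 5, Cnp 3, Mal, Opalin and Ugt8a 2 each, and Mog, Mag and Cldn11 1 each. Each gene is represented below by its probe set with the highest mean over the 54 arrays, unless another is named by a letter, A being the brightest. The rule uses gene symbols alone, although the set was drawn up with earlier results of these data known.

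Oligodendrocytes wrap axons of the brain and spinal cord in layers of their own membrane, and the compacted layers form the myelin sheath that speeds conduction. Myelin is rich in cholesterol and galactolipids, and a small number of structural proteins hold its layers together and attach it to the axon. Brainstem is crossed by large myelinated tracts, striatum by bundles of fibres, and hippocampus holds more cell layers and neuropil than white matter.

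The mice were males of the strains C57BL6/J, C57BL10/J, C57L/J, C57BLKS/J, BalbC/J and C3H HeJ, 60 days old at death. None carried a transgene or received a drug, as far as the labels say. Of 12 mice per strain, 6 had been tested from day 50 for prepulse inhibition, the reduction of the startle response by a weaker sound that precedes it, and 6 had not. Whole hippocampus, striatum and brainstem were dissected, and RNA from 3 mice was pooled for each array, with hemispheres balanced over the pools. Each of the 18 groups of 1 strain and 1 tissue had 3 arrays, 1 from tested and 2 from untested mice. The values are on a log2 scale, so that 1 unit is a doubling. A difference counts as called where its adjusted p (limma's moderated test, Benjamini-Hochberg over all genes tested in that comparison) was under 0.05. Pools of 3 mice hide the spread between animals, so these p-values measure the spread between pools and arrays.

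Upstream sequence is shown for members whose levels moved together across arrays (below) and which hold a motif of oligodendrocyte regulators, with Mog, which had no match, beside them. RefSeq's table for GRCm38.p6 had a promoter entry for 8 of the 9 genes, of which the 250 bases before the start were searched on both strands. The motif CTGGCAC is a core of sites bound by MYRF, a regulator of myelin genes. Cores of SOX factor sites were searched as ACAAAG and as a second form, AACAAT. The form CAGCTG was searched as an E-box, and TATAAA as a core promoter element. The motif CTGGCAC was found upstream of 2 of the 8 genes, Mag and Cnp, and in 4.19% of 32851 promoters of that length. ACAAAG was found upstream of 4 of the 8 genes, Mag, Cnp, Opalin and Mobp, and in 16.5% of promoters. The other motifs were found upstream of 0 of the 8 genes, against 9.42% of promoters for AACAAT, 13.0% for CAGCTG and 12.4% for TATAAA. A gene is counted for a match at any of its annotated starts, while the percentages are per promoter entry, so their units differ. These matches describe the letters of the windows and are not measured binding sites. Capitals mark CTGGCAC or ACAAAG on either strand, and no 2 matches overlap. Mag is shown for 1 of its 3 annotated starts, chr7:30914923-30915172 on the minus strand, Cnp at chr11:100574689-100574938 on the plus strand and Mobp at chr9:120149492-120149741 on the plus strand. Opalin is at chr19:41077114-41077363 and Mog at chr17:37023399-37023648, both on the minus strand.
Mag: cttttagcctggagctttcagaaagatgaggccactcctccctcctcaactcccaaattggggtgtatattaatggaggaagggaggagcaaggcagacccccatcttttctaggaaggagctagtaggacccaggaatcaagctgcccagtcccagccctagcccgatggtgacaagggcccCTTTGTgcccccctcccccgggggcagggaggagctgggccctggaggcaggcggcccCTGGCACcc
Cnp: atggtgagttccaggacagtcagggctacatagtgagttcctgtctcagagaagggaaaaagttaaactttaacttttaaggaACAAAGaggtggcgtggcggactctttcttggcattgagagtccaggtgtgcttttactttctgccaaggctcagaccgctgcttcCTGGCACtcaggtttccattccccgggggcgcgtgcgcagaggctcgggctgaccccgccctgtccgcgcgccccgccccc
Mobp: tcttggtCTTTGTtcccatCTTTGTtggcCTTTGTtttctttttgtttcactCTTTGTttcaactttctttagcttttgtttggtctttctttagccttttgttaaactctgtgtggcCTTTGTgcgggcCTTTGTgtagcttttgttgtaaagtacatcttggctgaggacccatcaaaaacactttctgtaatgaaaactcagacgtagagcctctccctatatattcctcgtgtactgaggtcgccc
Opalin: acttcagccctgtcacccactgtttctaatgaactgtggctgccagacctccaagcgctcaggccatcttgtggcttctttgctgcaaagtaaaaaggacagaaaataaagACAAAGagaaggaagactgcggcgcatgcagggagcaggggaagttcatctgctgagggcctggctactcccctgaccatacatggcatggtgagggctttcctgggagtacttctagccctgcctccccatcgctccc
Mog: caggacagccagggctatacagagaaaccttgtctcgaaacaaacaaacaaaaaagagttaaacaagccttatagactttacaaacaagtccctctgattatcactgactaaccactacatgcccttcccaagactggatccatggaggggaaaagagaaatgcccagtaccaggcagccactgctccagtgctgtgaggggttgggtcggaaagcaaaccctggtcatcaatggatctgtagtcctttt
The Mag and Cnp windows each hold 1 match of both motifs. The Mobp window holds 6 of ACAAAG, and the Mog window none of either.

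The region and cell markers matched the labels on nearly all arrays. Slc6a5, the glycine transporter of brainstem neurons, averaged 12.15 in brainstem and 2.10 and 2.13 in hippocampus and striatum, and Drd1, a dopamine receptor of spiny neurons, averaged 13.56 in striatum. All 9 members, with Ermn and Aspa, markers of mature oligodendrocytes, were above the 40th percentile of their array on 54 of 54 arrays. Pmp2, a myelin gene of Schwann cells, was above it on 0 of 54. Some other myelin genes of peripheral nerve were above it on enough arrays to be tested, as given below. By correlation over all genes, 53 of the 54 arrays lay closest to another array of their own group, and the tested C57L/J striatum array lay closest to a C57BL6/J striatum array.

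In brainstem the second untested C3H HeJ array stood apart from the others. Its 9 members averaged 0.61 below the median of the 18 brainstem arrays, and other genes of mature oligodendrocytes 0.87 below. Cerebellar markers averaged 4.08 above, with Pcp2, a Purkinje cell gene, at 14.64 and Gabra6, a granule cell gene, at 14.51. Brainstem markers averaged 1.41 below and microglial markers 0.94 below. The part of this tissue mixture in the values of the members was not tested, and brainstem results are given with and without the array.

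**Figure D1:**
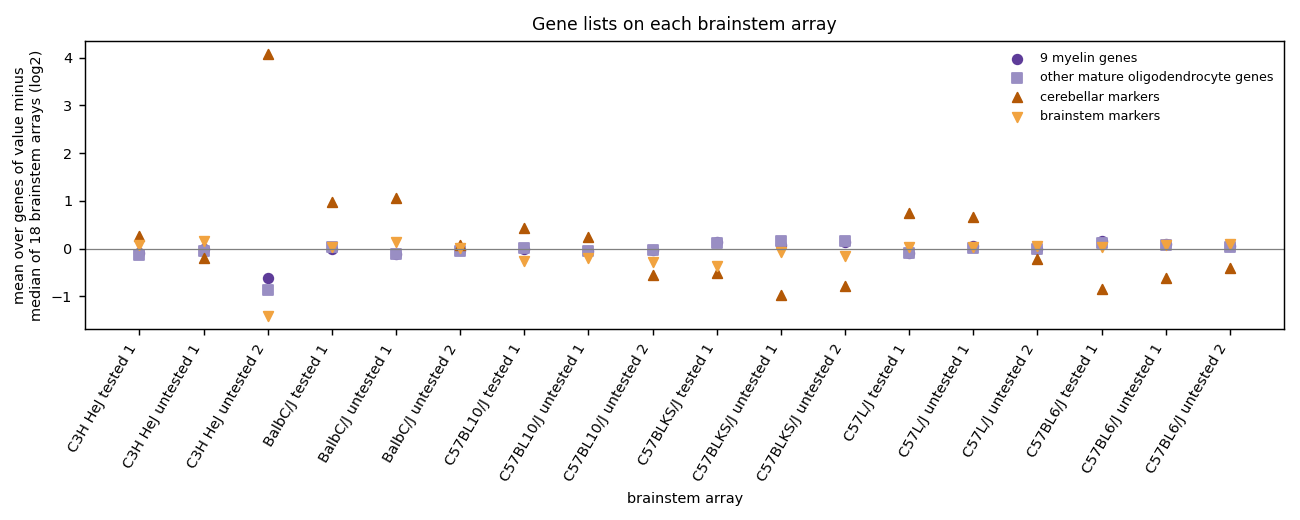
Mean over the genes of 4 lists of the log2 value minus the median of the 18 brainstem arrays, for each brainstem array (x axis, grouped by strain). The 9 members, other mature oligodendrocyte genes and brainstem markers are all low, and cerebellar markers 4.08 high, on the second untested C3H HeJ array.

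On the deposited scale all 9 genes were higher in brainstem than in hippocampus and in striatum, with exceptions under other scalings for Mbp, Opalin and Cldn11 given below, and 8 of 9, all but Mbp, were higher in striatum than in hippocampus. Fewer cells of a type and less RNA per cell cannot be told apart in tissue RNA, here and below. Called higher in brainstem than in hippocampus were 9 of 9 members against 43.6% of all genes, with a median difference of 1.25 against 0.01. Against striatum they were 9 of 9 with 59.3% of all genes, medians 0.72 and 0.31, and in striatum against hippocampus 8 of 9 with 22.5% of all genes, medians 0.59 and -0.25. Most genes differ between brain regions, with 82.4% of all genes called in one direction or the other between brainstem and hippocampus.

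Ugt8a, the enzyme that makes galactosylceramide, the main galactolipid of myelin, had the widest contrast between brainstem and hippocampus among the 9. Its 18 hippocampal arrays lay between 11.74 and 12.64 with a median of 12.20, its striatal arrays between 12.46 and 13.41 with a median of 12.85, and its brainstem arrays between 13.95 and 14.89 with a median of 14.47. Every brainstem array was above every array of the other regions, while hippocampus and striatum overlapped. Brainstem exceeded hippocampus by 2.29 ± 0.07 (SE), 4.88-fold, and striatum by 1.56, 2.96-fold. Mag, an adhesion molecule of the myelin membrane that faces the axon, differed by 2.05 ± 0.08 between brainstem and hippocampus, 4.13-fold. Its hippocampal arrays ran from 10.21 to 11.71 (median 11.00), its striatal arrays from 11.15 to 12.27 (median 11.86) and its brainstem arrays from 12.13 to 13.26 (median 13.08). Mog, a glycoprotein on the outermost surface of the sheath, differed by 2.04 ± 0.10, 4.10-fold, with arrays from 9.72 to 11.35 (median 10.69), 11.15 to 12.04 (11.58) and 11.60 to 13.01 (12.68) in hippocampus, striatum and brainstem. For both genes brainstem and hippocampal arrays did not overlap, and striatal arrays overlapped those of each neighbour.

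The brainstem excess over hippocampus was 2.76-fold for Mobp, a basic protein of compact myelin, 2.38-fold for Mal, a proteolipid of membrane rafts and vesicle transport, and 2.35-fold for Cnp, an enzyme of the uncompacted loops. It was 2.03-fold for Opalin, a glycoprotein of oligodendrocyte membranes, and 1.87-fold for Cldn11, which forms the tight junctions of the sheath. Mbp, the basic protein that joins the cytoplasmic faces of compact myelin, differed by 0.31, 1.24-fold. The arrays of brainstem and hippocampus did not overlap for 6 of the 9 genes, the exceptions being Mal, Opalin and Cldn11. On the deposited scale the order of brainstem over striatum over hippocampus was seen in 50 of the 54 combinations of gene and strain, and the 4 others were all Mbp. Neither count has a share over all genes beside it, so neither sets the members apart from other genes.

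These directions depend in part on how arrays are put on a common scale, since the median of all genes differed by 0.31 between brainstem and striatum. With each array centred on its own median, Mbp, Opalin and Cldn11 were lower in brainstem than in striatum, by -0.33, -0.19 and -0.31, and all 9 members stayed above the median of all genes, which was then -0.34. After quantile normalization Mbp was at -0.033 between brainstem and hippocampus and at -0.076 between brainstem and striatum. The other 8 members were higher in brainstem than in hippocampus under every scaling tried.

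**Figure D2:**
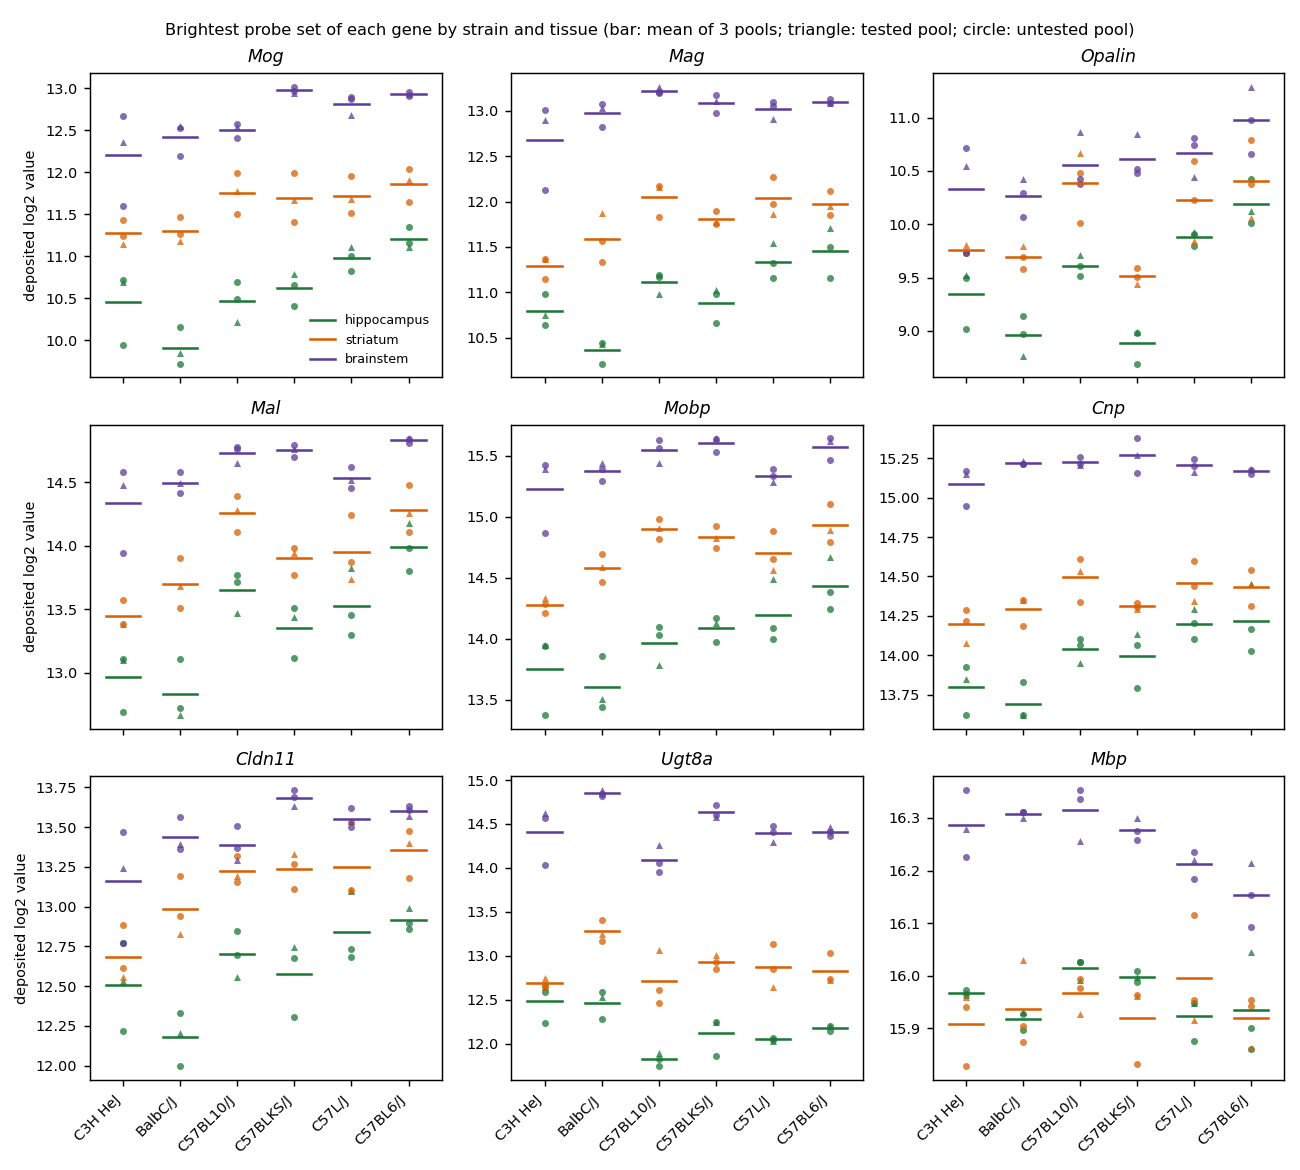
Log2 value of each member on all 54 arrays, 1 panel a gene, by strain on the x axis and coloured by tissue; triangles are pools of tested mice, circles pools of untested mice and bars the mean of 3 pools. On this deposited scale brainstem lies highest on average in all panels, which does not hold for Mbp after quantile normalization or for Mbp, Opalin and Cldn11 after median centring, and BalbC/J hippocampus lies lowest or near lowest in most.

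Strains differed within each tissue as well, with the members' differences widest on median in hippocampus. Tested over the 6 strains, 8 of 9 members were called in hippocampus against 31.2% of all genes, 6 of 9 in striatum against 26.2%, and 4 of 9 in brainstem against 23.0%. The range from the lowest to the highest strain mean had a median over the 9 members of 0.83, 0.65 and 0.52 in these tissues, against 0.27, 0.36 and 0.30 over all genes. In hippocampus C57BL6/J had the highest mean for 7 of the 9 genes and BalbC/J the lowest for 7. In striatum C57BL6/J was highest for 5 and C3H HeJ lowest for 8, and in brainstem C57BLKS/J was highest for 4 and C3H HeJ lowest for 6. When the 6 strains are put in order for each gene, 0 of the 45 neighbouring pairs were called in each tissue by limma's test, and 8, 6 and 1 in hippocampus, striatum and brainstem had an unadjusted p under 0.05. Neighbours are picked by ranking the same means, so their gaps are the narrow ones by construction. No share over all genes is given for neighbouring pairs, so these counts do not set the members apart. Over all 15 pairs of strains, 47 of 135 member differences were called in hippocampus against 10.6% over all genes, 30 in striatum against 9.05% and 20 in brainstem against 8.15%.

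**Figure D3:**
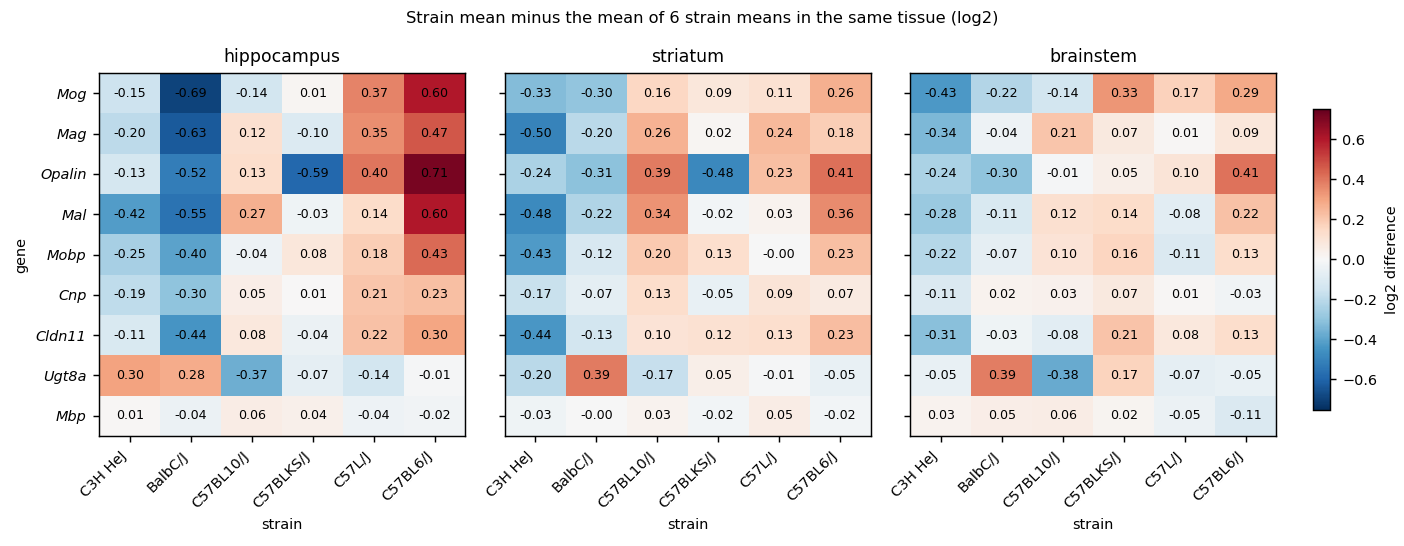
Strain mean of 3 pools minus the mean of the 6 strain means, in log2 units, for each member (rows), strain (columns) and tissue (panels), with the value in each cell. In the hippocampal panel BalbC/J is lowest and C57BL6/J highest for 7 genes each, and Ugt8a is highest in C3H HeJ.

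In hippocampus 7 of the 9 genes were lower in BalbC/J than in C57BL6/J and 0 were higher, against 8.76% of all genes called lower and 6.29% called higher. The members' median difference was -0.83 and that of all genes -0.00. The surface and axon-facing glycoproteins Mog and Mag and the membrane proteins Opalin and Mal were 2.14- to 2.45-fold lower. Mog read 9.86, 10.16 and 9.72 on the tested and the 2 untested BalbC/J arrays, and 11.12, 11.16 and 11.35 on those of C57BL6/J. The 2 strains did not overlap, and the difference was -1.29 ± 0.19 (SE), 2.45-fold (adjusted p = 0.000176). The other strains lay between them for Mog, at 10.70, 10.71 and 9.95 in C3H HeJ, 10.21, 10.69 and 10.49 in C57BL10/J, 10.79, 10.41 and 10.66 in C57BLKS/J, and 11.11, 11.00 and 10.83 in C57L/J. The second untested C3H HeJ array read as low as BalbC/J, and all C57L/J arrays lay above those of C57BL10/J and C57BLKS/J.

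Mag read 10.43, 10.44 and 10.21 in BalbC/J, below each of the other 15 hippocampal arrays, and 11.71, 11.16 and 11.50 in C57BL6/J. This was a difference of -1.10 ± 0.13, 2.14-fold (adjusted p = 3.66e-05). The remaining strains held 10.75, 10.99 and 10.64 in C3H HeJ, 10.98, 11.19 and 11.17 in C57BL10/J, 11.02, 10.66 and 10.98 in C57BLKS/J and 11.54, 11.32 and 11.16 in C57L/J. C57L/J and C57BL6/J had the highest means for Mag, with overlapping arrays, and 2 C57BL10/J arrays lay above the lowest array of each. Mal read 12.67, 13.11 and 12.72 in BalbC/J and 14.18, 13.80 and 13.98 in C57BL6/J, without overlap, a difference of -1.16 ± 0.16, 2.23-fold (adjusted p = 0.000133). C3H HeJ, at 13.10, 13.11 and 12.69, was as low as BalbC/J for Mal.

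The remaining genes of compact myelin, of its loops and of its junctions had smaller estimates on their brightest probe sets, and this contrast between genes was not tested. Mobp read 13.51, 13.86 and 13.44 in BalbC/J and 14.67, 14.24 and 14.39 in C57BL6/J, a difference of -0.83 ± 0.16, 1.77-fold (adjusted p = 0.00246). Cldn11 read 12.20, 12.33 and 12.00 against 12.99, 12.86 and 12.90, a difference of -0.74 ± 0.14, 1.67-fold (adjusted p = 0.00236). Cnp read 13.62, 13.83 and 13.62 against 14.45, 14.03 and 14.17, a difference of -0.52 ± 0.11, 1.44-fold (adjusted p = 0.00337). The arrays of the 2 strains did not overlap for these genes either. Mbp differed by -0.02 and Ugt8a by 0.29 (adjusted p = 0.0832). All 7 calls held, and none reversed, when each of the 18 hippocampal arrays was left out in turn.

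BalbC/J was also lower than C57L/J in hippocampus for those 7 genes (Mog, Mag, Mobp, Mal, Opalin, Cnp and Cldn11), by between -0.51 for Cnp and -1.07 for Mog, with Ugt8a higher by 0.42, against 9.57% of all genes called lower and 7.80% called higher. That comparison shares its BalbC/J arrays with the one above. The median member difference between C57L/J and C57BL6/J themselves was -0.13 in hippocampus.

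C3H HeJ was lower than C57BL6/J in hippocampus for 6 genes, Mal (-1.02), Opalin (-0.84), Mog (-0.75), Mobp (-0.68), Mag (-0.66) and Cnp (-0.42), with 0 higher, against 10.5% of all genes called lower and 7.51% called higher. The second untested C3H HeJ array carried part of this, since 8 of its 9 members lay below both other pools, at 0.43 on average below the median of the hippocampal arrays. Without it Mal (-0.89), Opalin (-0.68), Mag (-0.61) and Mog (-0.50) were called lower, against 7.2% of all genes. Mobp (-0.50, adjusted p = 0.0516) and Cnp (-0.34, adjusted p = 0.0750) were then not called. Ugt8a was then called higher by 0.42, against 5.32% of all genes. The Mog call was also lost without the second untested C57BL6/J array, and the Cnp call without the tested one.

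Markers of other cells and of neighbouring tissue varied between the same hippocampal arrays. Relative to the median array of the tissue, 26 other genes of mature oligodendrocytes averaged -0.42 to -0.08 on the 3 BalbC/J arrays and 0.18 to 0.36 on the C57BL6/J arrays. Genes of oligodendrocyte precursors averaged -0.02 to 0.12 in BalbC/J, -0.05 to 0.13 in C3H HeJ and -0.03 to 0.11 in C57BL6/J, which overlap. Microglial markers averaged -0.11 to -0.06 in BalbC/J and -0.32 to -0.21 in C3H HeJ, below the -0.03 to 0.11 of C57BL6/J without overlap. Astrocyte markers went the other way in BalbC/J, at 0.075 to 0.170 against -0.091 to 0.067 in C57BL6/J, without overlap. In C3H HeJ they averaged -0.028 to 0.061, within the span of C57BL6/J. Choroid plexus markers ran from -0.66 to 2.92 in BalbC/J, from -1.13 to 2.58 in C3H HeJ and from -0.88 to 1.07 in C57BL6/J. Thalamic markers ran from -0.45 to 0.67 in BalbC/J and from -0.16 to 0.71 in C57BL6/J. The part of these in the strain differences was not tested.

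In striatum the low strain was C3H HeJ, while BalbC/J lay nearer to the others. C3H HeJ was lower than C57BL6/J for 6 genes and higher for 0, against 5.11% of all genes called lower and 12.5% called higher, with a median of -0.65 against 0.06 over all genes. Mobp read 14.34, 14.28 and 14.21 in C3H HeJ, below each of the other 15 striatal arrays, and 14.89, 14.80 and 15.11 in C57BL6/J, a difference of -0.65 ± 0.10 (adjusted p = 0.000353). Mal read 13.38, 13.38 and 13.57 against 14.25, 14.11 and 14.47, a difference of -0.83 ± 0.13 (adjusted p = 0.000864). Mag read 11.37, 11.37 and 11.15 against 11.95, 11.86 and 12.12, a difference of -0.68 ± 0.14 (adjusted p = 0.00440). The arrays of the 2 strains did not overlap for any of these genes. Cldn11, at 12.55, 12.61 and 12.89 against 13.40, 13.18 and 13.48, differed by -0.67 ± 0.13 (adjusted p = 0.00307).

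Mog and Opalin were called lower in C3H HeJ striatum with less margin. Mog differed by -0.59 (adjusted p = 0.0237), a call lost without the tested or the first untested C3H HeJ array or the tested or second untested C57BL6/J array. Opalin differed by -0.65 (adjusted p = 0.0365), a call lost without any one of the 3 C3H HeJ arrays or either untested C57BL6/J array. Against C57BL10/J 6 genes were called lower in C3H HeJ (Mag, Mobp, Mal, Opalin, Cnp and Cldn11) with 5.50% of all genes, and 3 without either the tested or the first untested C3H HeJ array. Against C57L/J the count was 5 with 8.91% of all genes (6 without the tested C57L/J array, which lay closest to C57BL6/J), and against C57BLKS/J 4 with 5.27%, and these comparisons share the C3H HeJ arrays.

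BalbC/J was lower than C57BL6/J in striatum for 3 genes, Mal (-0.58), Opalin (-0.72) and Mobp (-0.35), against 3.51% of all genes. The count fell to 0 without the second untested BalbC/J or the second untested C57BL6/J array. It was 1 when any 1 of 4 other arrays was left out, the tested C57BLKS/J, the tested C57BL6/J, the first untested C57L/J and the first untested C3H HeJ array. Choroid plexus markers in striatum ran from -0.44 to 4.06 on the BalbC/J arrays, from -0.67 to -0.43 on those of C3H HeJ and from -0.79 to 1.89 on those of C57BL6/J. Microglial markers ran from -0.31 to -0.14 in C3H HeJ and from -0.12 to -0.04 in C57BL6/J, and neuronal markers from -0.29 to -0.12 and from -0.10 to 0.02, so that both lists were lower in C3H HeJ without overlap. In BalbC/J these lists ran from -0.17 to 0.02 and from -0.12 to 0.21. Astrocyte markers ran from 0.11 to 0.23 in BalbC/J, from -0.10 to -0.09 in C3H HeJ and from -0.15 to 0.04 in C57BL6/J. Cortical markers ran from -0.67 to 0.30 in C3H HeJ and from -0.96 to -0.09 in C57BL6/J, and reached 1.65 on the second untested C57L/J array. On that C57L/J array striatal markers averaged -0.91. All 9 members lay above both other C57L/J pools there, at 0.34 on average above the median of the striatal arrays. The part of these marker lists in the striatal differences was not tested.

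Over all 6 strains the striatal calls were Mobp (range 0.65, adjusted p = 0.00111), Mal (0.83, 0.00213), Mag (0.76, 0.00481), Opalin (0.90, 0.00942), Cldn11 (0.67, 0.0114) and Mog (0.59, 0.0445). The first 4 were called whichever of the 18 striatal arrays was left out. Without the tested C57L/J array 7 were called, Ugt8a joining the 6. Cldn11 was lost without the tested or the first untested C3H HeJ array. Mog was lost without any 1 of 11 arrays, all 3 of C3H HeJ and of BalbC/J, the tested and first untested C57BL10/J, the tested C57BLKS/J, and the tested and second untested C57BL6/J arrays.

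In brainstem, where the levels are highest, the calls over 6 strains were Ugt8a (range 0.76, adjusted p = 0.00480), Mog (0.76, 0.0347), Mal (0.50, 0.0364) and Mbp (0.16, 0.0418). Mog read 12.36, 12.67 and 11.60 in C3H HeJ, 12.55, 12.19 and 12.53 in BalbC/J, 12.54, 12.40 and 12.57 in C57BL10/J, 12.95, 13.01 and 12.96 in C57BLKS/J, 12.69, 12.89 and 12.87 in C57L/J, and 12.92, 12.95 and 12.91 in C57BL6/J. The lowest of these is the array that stood apart, and the arrays of C57BLKS/J and C57BL6/J lie above those of all other strains. Cerebellar markers ran from -0.97 to -0.52 in C57BLKS/J and from -0.84 to -0.41 in C57BL6/J. In the other strains they ran from -0.54 on a C57BL10/J array to 4.08 on the array that stood apart. Their part in the order of strains was not tested. Without that array 7 of 9 members were called against 37.7% of all genes, namely Mog, Mal, Cldn11, Mobp, Opalin, Ugt8a and Mbp. The ranges then narrowed, to 0.55 for Mog, 0.33 for Mal and 0.31 for Cldn11. Without the first untested C3H HeJ array 8 were called, without the tested C57BL10/J array the count stayed at 4, and without any 1 of the 15 other arrays it was 1 or 2. The share of all genes is not given for these omissions, so these counts do not set the members apart. Ugt8a was called under every one of these omissions.

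C3H HeJ was lower than C57BL6/J in brainstem for 5 genes, against 7.71% of all genes, and higher for 1, against 11.6%. The lower genes were Mog (-0.72), Opalin (-0.65), Mal (-0.50), Cldn11 (-0.44) and Mobp (-0.35), and Mbp was higher by 0.13. Without the array that stood apart 3 were called lower, Mog (-0.41), Mal (-0.30) and Cldn11 (-0.23), and 0 higher, against 6.97% and 14.6% of all genes. The number lower was 1 without the tested or the first untested C57BL6/J array and 2 without the second. It was also 3 without any BalbC/J or C57BLKS/J array, either untested C57BL10/J array or the second untested C57L/J array.

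BalbC/J differed from C57BL6/J in brainstem in both directions. Ugt8a was higher by 0.44 (adjusted p = 0.0259) and Mbp by 0.15 (adjusted p = 0.0227), against 8.46% of all genes called higher, and Opalin was lower by -0.71 (adjusted p = 0.0387), against 3.83%. Without any 1 of the BalbC/J arrays or the first untested C57BL6/J array, 0 were called in either direction. Opalin was also lost without the tested C57BL6/J array, either untested C57BL10/J array or any C57BLKS/J array, and the higher calls were reduced to 1 and 0 without the tested and the second untested C57BL6/J array. Without the C3H HeJ array that stood apart, which is in neither group but enters the estimate of the spread, 2 were called higher against 18.1% of all genes and 5 lower against 7.19%, the latter Opalin (-0.71), Mog (-0.50), Mal (-0.33), Mobp (-0.20) and Cldn11 (-0.16). Cerebellar markers ran from 0.08 to 1.07 on the BalbC/J brainstem arrays and from -0.84 to -0.41 on the C57BL6/J arrays, and their part in these values was not tested.

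Ugt8a followed an order of its own, with BalbC/J high and C57BL10/J low in all 3 tissues. In hippocampus it read 12.64, 12.59 and 12.24 in C3H HeJ, 12.54, 12.59 and 12.28 in BalbC/J, 11.90, 11.74 and 11.82 in C57BL10/J, 12.25, 11.86 and 12.25 in C57BLKS/J, 12.04, 12.05 and 12.07 in C57L/J, and 12.20, 12.14 and 12.20 in C57BL6/J. In striatum BalbC/J read 13.25, 13.41 and 13.17 and C57BL10/J 13.07, 12.61 and 12.46. In brainstem BalbC/J read 14.89, 14.82 and 14.84, above each of the other 15 arrays, and C57BL10/J 14.26, 14.06 and 13.95. The arrays of the 2 strains did not overlap in any tissue. BalbC/J exceeded C57BL10/J by 0.65 ± 0.11 in hippocampus (adjusted p = 0.000633), by 0.57 ± 0.15 in striatum (adjusted p = 0.0283) and by 0.76 ± 0.12 in brainstem (adjusted p = 0.000654). The striatal call was lost without the tested or first untested BalbC/J array or either untested C57BL10/J array.

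C3H HeJ was high for Ugt8a in hippocampus but not in the other tissues. It read 12.75, 12.67 and 12.64 in striatum, where its mean was the lowest of the 6, and 14.63, 14.57 and 14.03 in brainstem. Its difference from C57BL10/J was 0.67 in hippocampus and -0.03 in striatum, and the change between these tissues, -0.69 ± 0.19, was itself called (adjusted p = 0.0313). The corresponding changes were -0.62 against C57BLKS/J (adjusted p = 0.0391) and -0.63 against C57L/J (adjusted p = 0.0165). These are single changes picked out of all pairs of strains and of tissues. Limma's moderated F over all interaction terms was not called for this probe set of Ugt8a (adjusted p = 0.109). It was called for the second probe set (adjusted p = 0.0418). The second probe set of Ugt8a gave ranges over strains of 0.66, 1.11 and 1.05 in the 3 tissues and was called in each.

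Opalin was low in C57BLKS/J in hippocampus and striatum, where C57BL10/J, C57L/J and C57BL6/J were higher. In hippocampus it read 8.99, 8.69 and 8.98 in C57BLKS/J, 9.71, 9.60 and 9.51 in C57BL10/J, 9.92, 9.91 and 9.80 in C57L/J, and 10.13, 10.01 and 10.42 in C57BL6/J. C3H HeJ, at 9.52, 9.50 and 9.02, and BalbC/J, at 8.77, 9.14 and 8.97, completed the low end. C57BLKS/J was below C57BL10/J, C57L/J and C57BL6/J without overlap, by -1.30 ± 0.14 against C57BL6/J, 2.46-fold (adjusted p = 2.41e-05), and C57BL10/J exceeded it by 0.72 (adjusted p = 0.00691). In that last pair Opalin was the 1 member called, with 1.74% of all genes called higher.

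In striatum Opalin read 9.44, 9.59 and 9.50 in C57BLKS/J, 10.67, 10.48 and 10.01 in C57BL10/J and 10.06, 10.38 and 10.79 in C57BL6/J, again without overlap. The differences were -0.90 against C57BL6/J (adjusted p = 0.0313), lost without any of the 3 C57BLKS/J or either untested C57BL6/J array, and 0.88 for C57BL10/J over C57BLKS/J (adjusted p = 0.0336), lost without 8 of the 18 arrays. In brainstem C57BLKS/J, at 10.84, 10.51 and 10.48, lay among the others, at -0.36 against C57BL6/J (adjusted p = 0.517). The interaction of strain and tissue for Opalin was not called (adjusted p = 0.103), so a difference between tissues was not shown. The second Opalin probe set was above the 40th percentile on 0 hippocampal, 17 striatal and 1 brainstem arrays and gives no check of this pattern.

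Mbp gave the smallest differences, on a probe set near the top of the scale. Its brightest probe set ranked between 6 and 14 of all probe sets on its array, with a median rank of 9, and lay 0.29 to 0.67 below the highest value there. Hippocampal strain means ran from 15.92 to 16.01, striatal means from 15.91 to 16.00 and brainstem means from 16.15 in C57BL6/J to 16.32 in C57BL10/J. The range over strains was 0.10, 0.09 and 0.16, called in brainstem (adjusted p = 0.0418), where C57BL6/J read 16.21, 16.15 and 16.09 and C57BL10/J 16.26, 16.34 and 16.35. That call was lost without 14 of the 18 arrays.

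Dimmer Mbp probe sets gave wider differences. Probe set F averaged 13.74 over the 54 arrays and read 12.50, 12.91 and 12.63 in BalbC/J hippocampus against 13.78, 13.28 and 13.53 in C57BL6/J, without overlap. Its range over strains was 0.85 in hippocampus (adjusted p = 0.00166), 0.58 in striatum (adjusted p = 0.0395) and 0.20 in brainstem (adjusted p = 0.389). Its brainstem excess over hippocampus was 1.32, compared with 0.31 on the brightest probe set. Probe sets B to E, with means from 15.88 to 14.61, lay between, with brainstem over hippocampus at 0.63, 1.03, 1.02 and 0.95 and hippocampal ranges of 0.29, 0.35, 0.25 and 0.23, none called. Which transcripts each set reads was not analysed here, and the part of the scale's upper end in these values was not tested.

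The 2 dimmest Mbp probe sets departed from the rest. Probe set G averaged 9.94 in hippocampus, 10.02 in striatum and 8.16 in brainstem, so that brainstem was lower, by -1.78 against hippocampus. Probe set H varied by strain in striatum, reading 9.996, 9.95 and 9.92 in C3H HeJ, 9.73, 9.50 and 9.46 in BalbC/J, 9.45, 9.42 and 8.29 in C57BL10/J, 7.69, 7.96 and 7.89 in C57BLKS/J, 8.82, 7.88 and 7.96 in C57L/J, and 8.84, 8.65 and 8.86 in C57BL6/J. C3H HeJ lay above all other strains and C57BLKS/J below BalbC/J, C57BL10/J and C57BL6/J without overlap. The range was 2.11 in striatum (adjusted p = 0.000160), 0.62 in hippocampus (adjusted p = 0.0723) and 0.65 in brainstem (adjusted p = 0.555), and its interaction of strain and tissue was called (adjusted p = 0.000137). C3H HeJ, lowest in striatum for 8 members on their brightest probe sets, was highest on this one.

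Among the other genes with several probe sets, the brightest again gave the smaller contrasts in most cases. In hippocampus the range over strains was 0.83, 0.72, 1.04 and 1.44 for Mobp A to D, 0.52, 0.60 and 0.89 for Cnp A to C, 1.16 and 1.42 for Mal and 0.67 and 0.66 for Ugt8a, and each of these was called. The fifth Mobp probe set averaged 1.61 and was above the 40th percentile on 0 arrays. The brightest set gave the smallest hippocampal range of its gene for Mbp, Cnp and Mal.

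**Figure D4:**
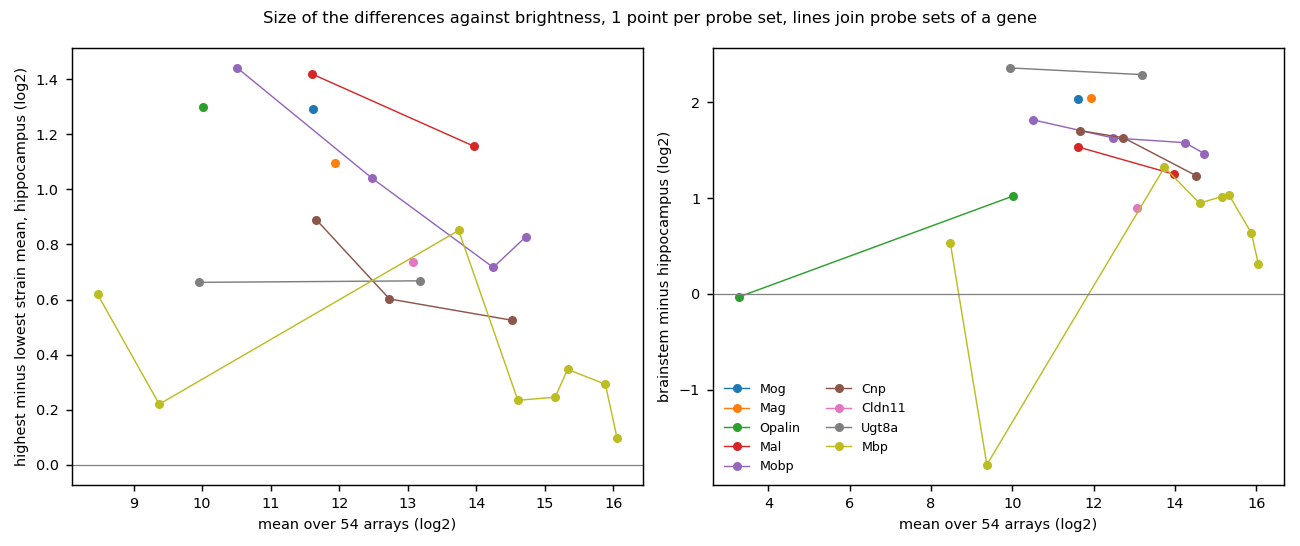
Mean log2 value of each probe set over 54 arrays (x axis) against its range over 6 strain means in hippocampus (left) and its brainstem minus hippocampus difference (right), coloured by gene. The brightest Mbp set, at 16.05, has a hippocampal range of 0.10, and Mbp G lies at -1.78 in the right panel.

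An interaction of strain and tissue was called for 2 of the 9 genes, Mag and Cnp, a share near the 17.4% of all genes called, so the count sets the members apart from other genes in no way. For Mag the moderated F over the 10 interaction terms was 3.314 (adjusted p = 0.0287) and for Cnp 2.994 (adjusted p = 0.0452). Among dimmer probe sets the same test called Mbp F (adjusted p = 0.0339), Mal B (adjusted p = 0.0459) and Cnp B (adjusted p = 0.0421). It also called Mbp H and Ugt8a B, as given above. The other dimmer sets tested were not called, among them Cnp C (adjusted p = 0.0716). In the pair BalbC/J and C57BL6/J, Mag differed by -1.10 in hippocampus and -0.39 in striatum, and by -0.12 in brainstem, where BalbC/J read 13.03, 12.82 and 13.08 and C57BL6/J 13.08, 13.13 and 13.08. The change from hippocampus to brainstem was 0.97 ± 0.22 (adjusted p = 0.0105). Cnp differed by -0.52 in hippocampus and 0.05 in brainstem, where BalbC/J read 15.23, 15.22 and 15.22 and C57BL6/J 15.18, 15.17 and 15.15. The brainstem difference of Cnp was not called, and it lay near the median of all genes in that comparison, 0.04. The change of Cnp from hippocampus to brainstem was 0.58 ± 0.13 (adjusted p = 0.0104), and that of Mal, from -1.16 to -0.33, was 0.82 ± 0.21 (adjusted p = 0.0323).

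Against C57L/J, which shares the BalbC/J arrays, the change from hippocampus to brainstem was 0.93 for Mag (adjusted p = 0.0163) and 0.53 for Cnp (adjusted p = 0.0263). Without the brainstem array that stood apart 6 of 9 members had a called interaction (Mag, Mobp, Mal, Opalin, Cnp and Cldn11), against 21.9% of all genes. Without the second untested C3H HeJ hippocampal array there were 4 (Mag, Mog, Mobp and Cnp), against 15.5% of all genes. There were also 4 without the first untested BalbC/J hippocampal array or the first untested C3H HeJ brainstem array. There were 0 without the tested or second untested array of BalbC/J in hippocampus or brainstem or of C57BL6/J in hippocampus. For omissions other than those of the second untested C3H HeJ arrays the share of all genes is not given, so those counts do not set the members apart. The Cnp call was lost without 32 of the 54 arrays and the Mag call without 6.

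**Figure D5:**
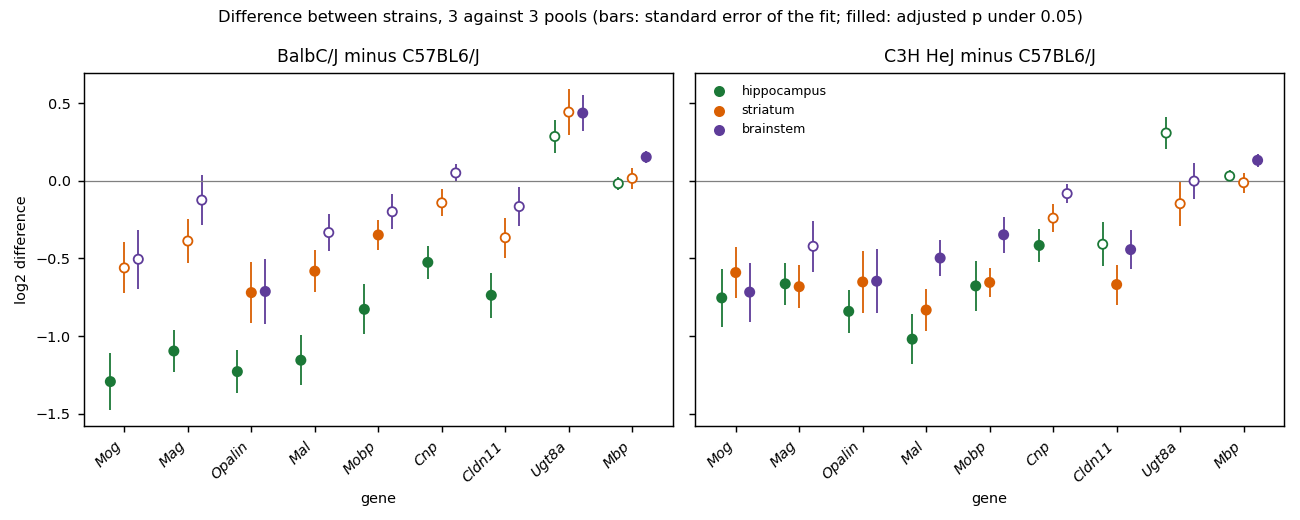
Difference in log2 units, with its standard error, of BalbC/J and of C3H HeJ from C57BL6/J for each member in hippocampus, striatum and brainstem; filled points were called at adjusted p under 0.05. The BalbC/J differences of Mag, Mal and Cnp are far from zero in hippocampus (-1.10, -1.16 and -0.52) and nearer to it in brainstem (-0.12, -0.33 and 0.05).

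Prepulse inhibition testing left no called difference in the members. Between 6 tested and 12 untested pools per tissue 0 of 9 members were called, as were 0% of all genes, and limma's unadjusted p was under 0.05 for 0 members in any tissue. At that level were 488 of 12315 genes in hippocampus, while striatum had 467 of 12320 and brainstem 281 of 12484. Member differences ran from 0.03 to 0.12 in hippocampus. Striatal ones lay between -0.09 and 0.06, and brainstem ones between -0.04 and 0.25. The last is Opalin, at 0.25 ± 0.13.

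Other genes of the lineage were read from lists of their known roles. Of 26 further genes of mature oligodendrocytes with a probe set, 19, 16 and 9 were called over strains in hippocampus, striatum and brainstem, against 31.2%, 26.2% and 23.0% of all genes, with median ranges of 0.70, 0.66 and 0.61 against 0.27, 0.36 and 0.30 for all genes. In hippocampus 16 were lower in BalbC/J than in C57BL6/J and 1 higher, against 8.76% and 6.29% of all genes. In C3H HeJ 10 were lower than in C57BL6/J and 1 higher, against 10.5% and 7.51%. All 26 were higher in brainstem than in hippocampus, with a median of 1.96, where 43.6% of all genes were called higher. Tspan2, a tetraspanin of myelinating cells, had hippocampal strain means from 11.52 in C3H HeJ to 12.68 in C57BL6/J, and ranges of 1.17, 1.10 and 0.90 in the 3 tissues, each called. Car2, a carbonic anhydrase of oligodendrocytes, was highest in C57L/J, at 12.88 in hippocampus against 12.03 to 12.30 in the other strains.

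Transcription factors of the lineage were called over strains for 8 of 13 tested in hippocampus, while 8 of 14 were called in striatum and 4 of 14 in brainstem, against 31.2%, 26.2% and 23.0% of all genes, with median ranges of 0.55, 0.61 and 0.60. Sox10, the SOX factor needed for terminal differentiation, ranged by 0.69, 0.57 and 0.79, and its relative Sox8 by 1.54, 1.80 and 1.22, each called. Sox8 had its lowest hippocampal mean in BalbC/J, at 6.57, and its highest in C57BL6/J, at 8.11. Genes of precursor cells were called for 4, 2 and 4 of 8, with median ranges of 0.41, 0.37 and 0.47. In hippocampus 0 of the 8 were called lower in BalbC/J or C3H HeJ than in C57BL6/J, against 8.76% and 10.5% of all genes. In the same pairs 2 and 1 were called higher, against 6.29% and 7.51%. Ptprz1, a receptor phosphatase of precursors and astrocytes, was highest in C3H HeJ and BalbC/J there, at 12.83 and 12.80 against 12.42 in C57BL6/J.

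Lists of lipid, node and peripheral genes are read against the same 31.2%, 26.2% and 23.0% of all genes. Enzymes of myelin lipids were called for 5, 4 and 6 of 15 in hippocampus, striatum and brainstem, with median ranges of 0.35, 0.30 and 0.34, and cholesterol synthesis genes for 7, 7 and 8 of 19, with 0.34, 0.41 and 0.48. Galc, which degrades galactosylceramide, stood out in C57L/J, with strain means of 3.65, 2.47 and 2.91 in hippocampus, striatum and brainstem against 8.70 to 9.44 in all other strains. Whether a C57L/J sequence variant lies under its probes was not analysed here. Fa2h, which makes the 2-hydroxylated fatty acids of myelin galactolipids, had its lowest hippocampal mean in BalbC/J (9.89) and its highest in C57BL6/J (10.60), a range called at adjusted p = 0.00730. Partners at the node and paranode were called for 8, 8 and 5 of 18, with median ranges of 0.28, 0.38 and 0.27. Myelin genes of peripheral nerve were called for 0, 3 and 1 of 4 tested.

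On their brightest probe sets 7 of the members varied together from array to array, and Mbp and Ugt8a did not vary with them. After each tissue's mean was subtracted, Pearson's r over the 54 arrays between a member and the mean of the other 8 was 0.90 for Mag and Cldn11, 0.89 for Mobp and Mal, 0.87 for Mog and Cnp and 0.72 for Opalin, but -0.01 for Mbp and -0.08 for Ugt8a. The Mbp value belongs to the probe set at the top of the scale, which hardly varies between strains. Mbp B to F gave 0.53, 0.63, 0.58, 0.54 and 0.86, the last near the other members, and Mbp G and H gave -0.48 and -0.18. The second Ugt8a probe set gave 0.25. These arrays share strains and dissections, so r describes both together. The 10 genes outside the set most like the mean of the 9 members were Myrf (0.91), Plekhh1 (0.91), Tmem88b (0.90), Ndrg1 (0.89), S1pr5 (0.88), Cers2 (0.88), Tspan2 (0.88), Tmbim1 (0.88), Pde8a (0.87) and Slc44a1 (0.87). Among 11596 genes compared the median r was -0.02, and 37 were over 0.8. Myrf encodes the regulator whose core motif was searched above, and Cers2 a ceramide synthase of long fatty acids.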

How the data were processed

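Tissue RNA from pools of 3 mice was hybridised to 54 Affymetrix 3' expression arrays with 45101 probe sets. The authors deposited 1 normalized value per probe set and array, on a log2 scale by its range. The submitters' processing notes name R 2.6.1, affy 1.16.0, RMA, GCRMA 2.10.0 and limma 2.12.0. Not given in the sources used here are which of RMA and GCRMA made these values and the genome build. Depth does not apply to arrays, and their number, 3 per group, limits the precision. The growth protocol's list leaves out C57BL10/J, which the sample labels give.

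Probe sets were named through the platform annotation: 34945 had 1 gene symbol, 932 several, 9160 none and 64 were controls. A gene was tested where its brightest probe set exceeded the 40th percentile of the array on 3 or more arrays of a tissue (12315 genes in hippocampus, 12320 in striatum, 12484 in brainstem, 13199 across tissues). Array medians ran from 4.17 to 4.72. limma 3.58.1 in R 4.3.3 was fitted (lmFit, eBayes with trend) with strain and testing as terms within a tissue, and with both within each tissue over the 54 arrays. The latter took arrays as independent although mice are shared between tissues, and its tissue differences are those of untested pools, so they differ slightly from differences of means. Comparisons were the 6 strains, 15 strain pairs, 3 pairs of tissues, testing, and the interaction of strain and tissue.

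The members and lists were chosen with earlier results of these data known. Outside the members, the genes named are up to 4 per list with the smallest adjusted p over 6 strains in any tissue, and the 10 with the highest r. Pools of one number did not all deviate together across tissues, and were not taken as paired: r was above 0.1 in 10 of 18 cases between hippocampus and brainstem, 4 of 18 between hippocampus and striatum and 2 of 18 between striatum and brainstem. On simulated data, limma's pair test of C3H HeJ and C57BL6/J recovered 71% of changes of 0.5 and 94% of changes of 1 log2 unit in hippocampus, 52% and 86% in striatum, and 66% and 89% in brainstem. Alternatives were quantile normalization, median centring, no filter, a 60th percentile filter, the next brightest probe set, the mean of probe sets, no trend, array weights, a replicate block, no testing term and each array left out.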

Additional observations from a re-analysis of the deposited data

Results flagged for a closer look

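For Mag the differences between strains were not the same in all tissues, by limma's test of the interaction of strain and tissue (moderated F 3.314, adjusted p = 0.0287). The same test picked out Cnp (moderated F 2.994, adjusted p = 0.0452), a call lost without any 1 of 32 of the 54 arrays. The Mag call was lost without any 1 of 6, and 0 to 6 members were called over these omissions. The 2 calls among 9 members are near the 17.4% of all genes called. In both genes BalbC/J lay below C57BL6/J in hippocampus, by -1.10 and -0.52, and differed by -0.12 and 0.05 in brainstem.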

How the results depend on the processing

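Over the 10 alternatives other than leaving out arrays, 4526 results for single members kept their side of the threshold, 196 gained a call and 132 lost one. Another 8, called in the main fit, changed sign. Changes of sign among results not called in the main fit were not counted. The 8 were Mbp under quantile normalization (brainstem minus hippocampus -0.033, brainstem minus striatum -0.076), Mbp, Opalin and Cldn11 under median centring (brainstem minus striatum -0.33, -0.19 and -0.31), and Opalin on its dim next probe set (brainstem minus hippocampus -0.031, brainstem minus striatum -0.20, C57BL10/J minus C57BLKS/J in striatum -0.030). The cause was not tested. With array weights, whose fit did not reach its tolerance, 7 members were called over strains in brainstem, 75, 50 and 52 of 135 pair differences in hippocampus, striatum and brainstem, against 47, 30 and 20, and 9 interactions against 2. Brainstem pairs numbered 13 under quantile normalization, with no filter and with no trend. Interactions numbered 1 with no filter, 1 with no trend and 4 on the next brightest probe sets. With the pool number as a replicate block, a pairing the labels do not state, 4 interactions were called, and the other counts over members stayed within 1.5 times. Shares of all genes called with array weights and under the other alternatives are not given here. These counts therefore do not set the members apart from other genes.

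Leaving out each array in turn, members called over strains ran from 8 to 9, 4 to 7 and 1 to 8 in hippocampus, striatum and brainstem. Pair differences called ran from 37 to 49, 17 to 37 and 8 to 43, testing calls from 0 to 0 in each tissue, tissue calls from 9 to 9, 9 to 9 and 8 to 8, and interactions from 0 to 6. Striatal pairs numbered 19 and 17 without the tested and first untested C3H HeJ arrays. Brainstem pairs numbered 34 and 43 without the first and second untested C3H HeJ arrays, and 8, 9, 10, 11, 12 or 13 without any 1 of the BalbC/J, C57BLKS/J or C57BL6/J arrays, the untested C57BL10/J arrays or the second untested C57L/J array. Without the second untested C3H HeJ array the share over all genes rose too, to 13.9% of pair differences from 8.15%. Here and above, shares of all genes are given only for omission of the second untested C3H HeJ array of brainstem or of hippocampus. Counts under the other omissions therefore do not set the members apart from other genes. With 3 pools a group, signal at the top of the scale for Mbp and near background for Opalin's second probe set limits what these arrays show.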

Other observations

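Single arrays on which nearly all members moved together were seen in every tissue. In hippocampus 3 arrays had at least 8 of the 9 members below both other pools of their group and 2 had at least 8 above. There were 1 and 2 such arrays in striatum and 1 and 1 in brainstem. No share over all genes is given for these counts, so they do not set the members apart. Most members vary together from array to array, so they are not separate observations of an array.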
